A study of Homo sapiens with 6 samples.

Results

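The genes of cholesterol and fatty acid synthesis were followed in KNS42 cells, a cell line from a pediatric glioblastoma (GBM), upon knockdown of the RNA-binding protein MSI1. The set held 35 genes, named in a list of mevalonate and sterol enzymes, regulators of the SREBP transcription factors, fatty acid enzymes, and genes of sterol transport and efflux, and each was found by its symbol among the 58174 genes of the deposited expression table. Of these, 34 were among the 15069 genes expressed highly enough to test. Polyadenylated RNA was sequenced from 3 libraries of cells transfected with a control siRNA (siC) and 3 libraries of cells transfected with an siRNA pool against MSI1 (siMSI1), all harvested after 72 h and grown in medium with fetal bovine serum, which itself supplies lipoprotein cholesterol and fatty acids. The comparison asks how the abundance of these mRNAs differs when MSI1 is depleted, in 1 cell line.

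Cells make cholesterol from acetyl-CoA through mevalonate, isoprenoids, squalene and lanosterol, and they make fatty acids from the same acetyl-CoA, which ATP citrate lyase releases from citrate in the cytosol. When sterols in the endoplasmic reticulum are low, SCAP escorts the SREBP precursors to the Golgi for cleavage, and the released fragments activate most genes of both routes, whereas INSIG proteins hold the complex back when sterols are plentiful. Excess sterol instead activates the LXR receptors, which induce exporters such as ABCA1 and the ubiquitin ligase MYLIP. In glioblastoma these routes are known for feeding membrane growth.

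The targeted gene was checked first. MSI1 was present at 63.7, 61.9 and 66.9 FPKM (fragments per kilobase of gene length, scaled to library size) in siC replicates 1 to 3 and at 12.1, 12.3 and 11.2 FPKM in siMSI1 replicates 1 to 3. All siMSI1 libraries thus lay far below all siC libraries, at 18.5% of the siC mean (log2 fold change −2.43, SE 0.067, limma with Benjamini-Hochberg adjustment, adjusted p = 8.71e-06). Each library held 13087025 to 18024080 reads on genes. The counts of siMSI1 replicate 3 differed from those of siMSI1 replicates 1 and 2 by 9.83 and 11.2 chi-square units per degree of freedom. The value was 4.14 between those 2 replicates and 3.55 to 8.21 between pairs of siC libraries. The neural progenitor markers VIM (means of 1035 and 865 FPKM in siC and siMSI1), SOX2 (301 and 257 FPKM) and NES (69.2 and 61.8 FPKM) were abundant. PROM1, a further progenitor marker, was at only 0.450 to 1.03 FPKM. S100B and OLIG2 were listed at 0 in every library, and none of 14 blood, endothelial, epithelial and hepatocyte markers exceeded 0.379 FPKM. Neither the labels nor the study's methods say that the replicates were separate cultures, so the p-values measure the spread between these libraries, which may be technical.

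A small part of the set rose, and it did not come from 1 step of the route. Upon MSI1 knockdown 5 of the 34 tested genes rose and 0 fell at an adjusted p of at most 0.01: ACAT2, MSMO1, NSDHL, ACLY and MYLIP. That is 14.7% of the set, against 11.0% of all tested genes that passed in either direction and 5.15% that passed and were higher. At an unadjusted p under 0.05 there were 9 higher and 6 lower genes of the set, and voom on the reads behind the FPKM called 7 higher and 2 lower. The 6 libraries separated without overlap for 14 of the 34 genes, with siMSI1 on top for 9 and siC on top for 5, which is 41.2% of the set against 42.8% of all tested genes. Log2 fold changes were above 0 for 20 of the 34 genes, against 50% of all tested genes. The median log2 fold change over the set was 0.08, against 1.47e-05 over all tested genes. Without siMSI1 replicate 3 these medians were −0.013 and 0.0030. Without any other single library the median of the set was 0.049 to 0.10. Neither the share of genes called in either direction nor the share without overlap lies far from its background. The number of genes called depended on the libraries: without siC replicate 1 it was 0, without siC replicate 2, siC replicate 3 or siMSI1 replicate 2 it was 2, without siMSI1 replicate 1 it was 3, and without siMSI1 replicate 3 it was 6, of which 4 were higher and 2 lower. With quantile normalization 5 were higher and 1 was lower. In bulk RNA, fewer cells of a type and less RNA per cell cannot be told apart.

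**Figure D1:**
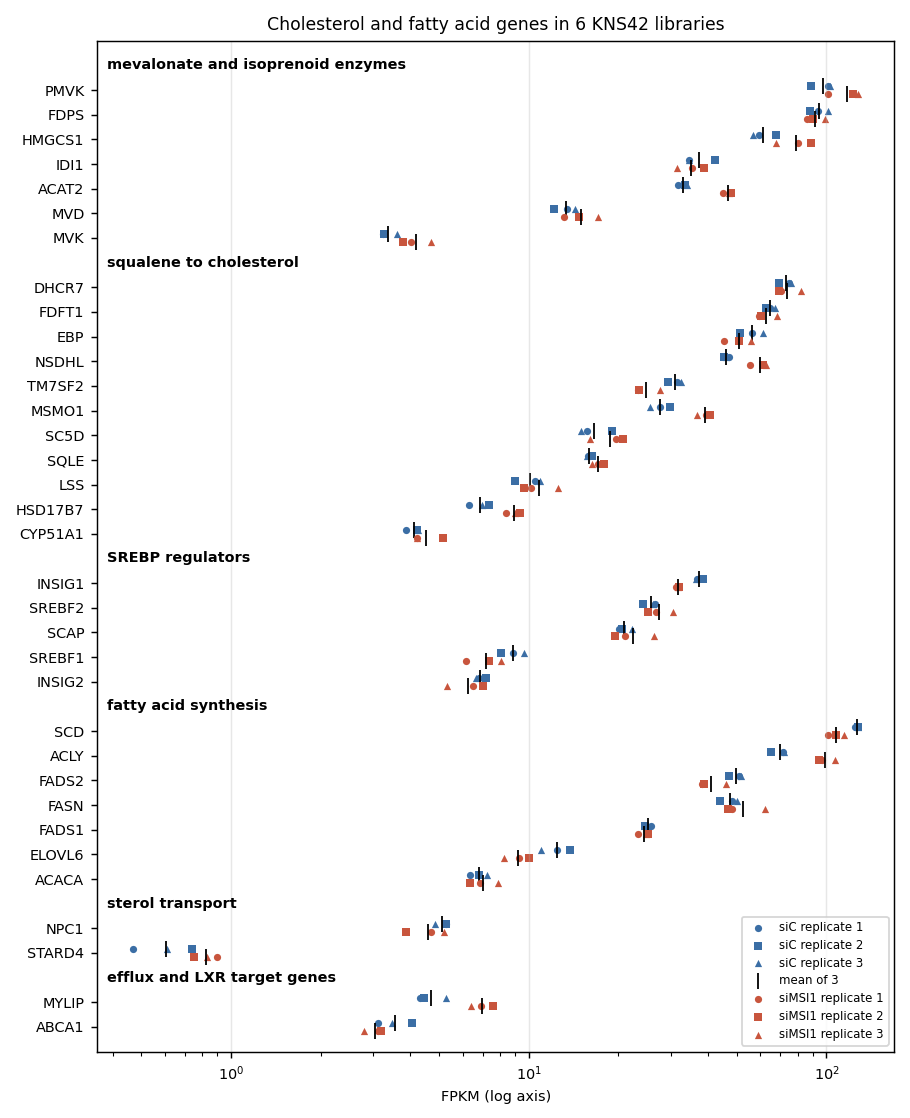
FPKM of each tested gene in each of the 6 libraries on a log axis, grouped by role, with siC in blue, siMSI1 in red and 1 marker shape per replicate number. Levels reached from 0.470 FPKM for STARD4 to 128 FPKM for SCD and PMVK, and for most genes the red and blue points lie close together.

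In siC cells the most abundant mRNA of the set per length was SCD, the desaturase that makes oleate from stearate, at 127 ± 1.30 FPKM (SD, n = 3). PMVK, the kinase that phosphorylates phosphomevalonate (97.4 ± 7.40 FPKM), and FDPS, the synthase of farnesyl diphosphate (94.3 ± 6.597 FPKM), came next and overlapped with each other. STARD4, a soluble sterol carrier, was the least abundant tested gene at 0.607 ± 0.135 FPKM. Along this order, 21 of the 33 neighbouring pairs of genes had overlapping siC libraries, so most neighbours in it do not differ beyond their spread. ABCG1, a sterol exporter of the LXR pathway, was not tested: it held 4, 0 and 0 reads in siC and 1, 0 and 2 reads in siMSI1, at or near the floor of 3 reads set here.

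**Figure D2:**
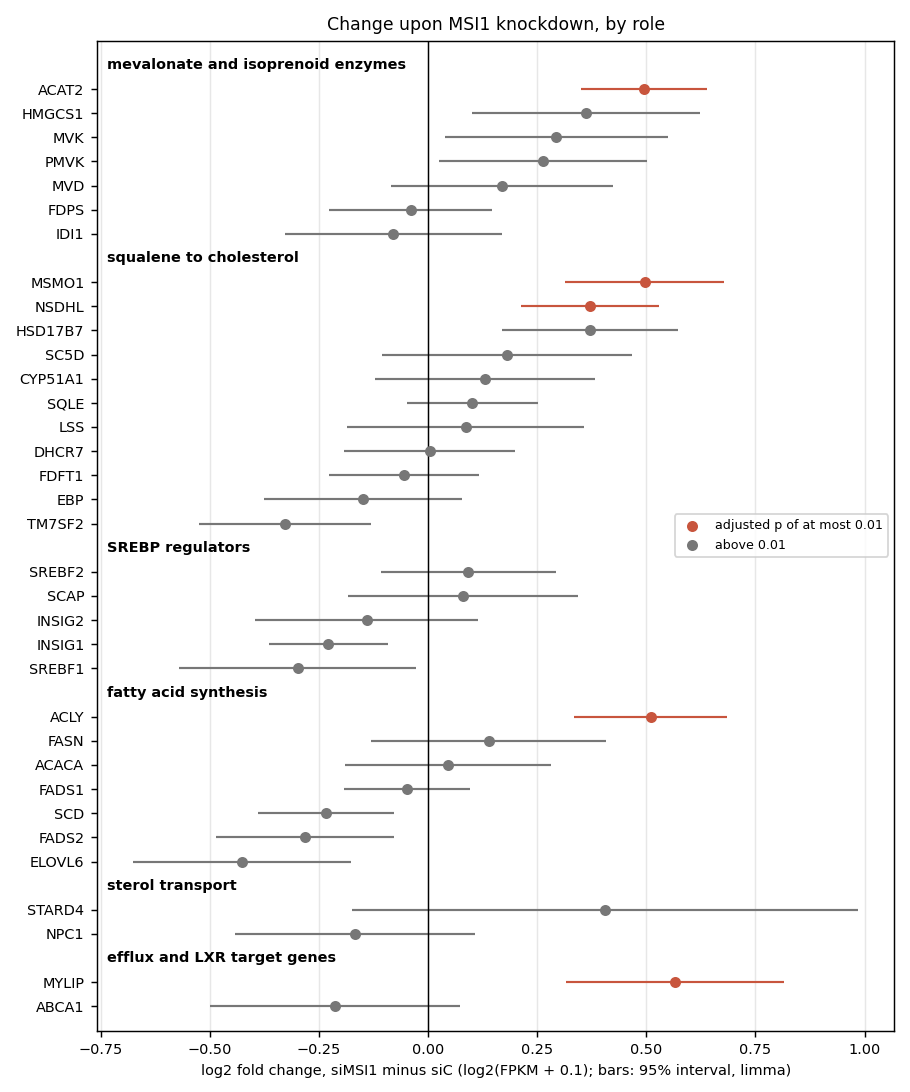
Log2 fold change of siMSI1 minus siC for each tested gene, grouped by role, with the 95% interval from limma. The genes past the adjusted p of 0.01 are drawn apart from the rest, and all 5 lie to the right of 0, between 0.37 and 0.57.

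In the mevalonate and isoprenoid group, 1 of 7 tested enzymes rose (5.15% of all tested genes) and 5 had values above 0 (50% of all). The median log2 fold change was 0.26. The gene that rose was ACAT2 (ENSG00000120437, GRCh38 chr6:159762045-159779112, + strand), the cytosolic thiolase that joins acetyl-CoA units to acetoacetyl-CoA. In siC replicates 1 to 3 ACAT2 stood at 31.8, 33.5 and 33.9 FPKM, and in siMSI1 at 44.9, 47.9 and 47.1 FPKM, from 2046 to 2906 reads per library. The siMSI1 libraries were all well above the siC libraries, at 141% of their mean (log2 fold change 0.49, SE 0.062, adjusted p = 0.0015). This was the steadiest difference of the set: it passed in 18 of 19 other settings and was missed without siC replicate 1, with an adjusted p of 0.0137. The other settings include a threshold of 0.05, which any gene called at 0.01 passes. TCP1, a chaperonin subunit gene, overlaps ACAT2 on the opposite strand at 60 to 69.7 FPKM, with a log2 fold change of −0.11 (adjusted p = 0.26).

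HMGCS1, which condenses acetoacetyl-CoA with a further acetyl-CoA to HMG-CoA, also separated, with a wider spread between replicates. Its levels were 59.3, 67.7 and 56.5 FPKM in siC and 80.4, 88.7 and 67.8 FPKM in siMSI1. The lowest siMSI1 library, replicate 3, was barely above the highest siC library, replicate 2, and the gene missed the threshold (log2 fold change 0.36, SE 0.113, adjusted p = 0.050). MVK, the mevalonate kinase, was at 3.24, 3.26 and 3.61 FPKM in the siC libraries and 4.02, 3.79 and 4.70 FPKM upon knockdown. Its groups did not overlap either, and the adjusted p was 0.089 at a log2 fold change of 0.29. The later enzymes lay nearer to 0 or overlapped, with log2 fold changes of 0.26 for PMVK (adjusted p = 0.10), 0.17 for MVD, which decarboxylates mevalonate diphosphate, −0.08 for IDI1, which isomerizes isopentenyl diphosphate, and −0.04 for FDPS.

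Of the 11 genes that lead from squalene to cholesterol, 2 rose (5.15% of all tested genes) and 8 had values above 0 (50% of all). Their median log2 fold change was 0.10. Both genes that rose act in the removal of the methyl groups at carbon 4 of the sterol ring. MSMO1 (ENSG00000052802, GRCh38 chr4:165327667-165343164, + strand) is the methylsterol oxidase that starts this removal. It was found at 27.6, 29.8 and 25.5 FPKM in the siC libraries and 39.4, 40.8 and 36.8 FPKM upon knockdown, from 1059 to 1679 reads. All siMSI1 libraries exceeded all siC libraries, and the mean was 141% of siC (log2 fold change 0.50, SE 0.079, adjusted p = 0.0041). MSMO1 passed in 13 of 19 other settings, and its adjusted p ranged from 0.0041 to 0.0231 when single libraries were left out, missing the threshold without siC replicates 1 or 3 or siMSI1 replicates 1 or 2.

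NSDHL (ENSG00000147383, GRCh38 chrX:152830967-152869729, + strand) encodes the dehydrogenase that takes the oxidized carbon off the ring. Its siC libraries were tightly grouped at 47.0, 45.4 and 46.0 FPKM, whereas the siMSI1 libraries stood at 55.3, 61.1 and 62.8 FPKM, from 1322 to 1800 reads. The groups did not overlap, and the siMSI1 mean was 130% of siC (log2 fold change 0.37, SE 0.068, adjusted p = 0.0074). This call was close to the threshold: it passed in 11 of 19 other settings, and centring each library on its median gave an adjusted p of 0.0104. With single libraries left out it ranged from 0.0087 to 0.0349, and it passed only without siMSI1 replicate 1. HSD17B7 encodes the ketoreductase of the same removal and was at 6.30, 7.36 and 6.96 FPKM in the siC libraries and 8.36, 9.38 and 8.98 FPKM upon knockdown. Its groups did not overlap and it missed the threshold (log2 fold change 0.37, adjusted p = 0.019), and its level is uncertain, since reads may be shared with the near-identical pseudogene HSD17B7P2 (1.42 to 2.38 FPKM, log2 fold change 0.54, adjusted p = 0.018). The siMSI1 libraries were thus above all siC libraries for 3 of 3 genes of this step, of which 2 passed, in a grouping that was chosen after the values were seen. Over all tested genes, 42.8% separated without overlap in either direction and 11.0% passed in either direction.

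The promoters of these 3 genes are shown because the genes share a step and a direction. That of SREBF2 is shown because it alone held the sterol element searched for, among the 30 genes of the set with a promoter entry. The sequences are those of RefSeq on GRCh38.p14, from 250 bases before to 50 bases after the transcription start, all on the + strand, at chr4:165327419-165327718 for MSMO1, chrX:152830813-152831112 for NSDHL, chr1:162790452-162790751 for HSD17B7 and chr22:41832855-41833154 for SREBF2. Capitals mark CCAAT, the box bound by NF-Y, on either strand, and in SREBF2 also a match to TCACNCCAC, a form of the sterol regulatory element.
MSMO1: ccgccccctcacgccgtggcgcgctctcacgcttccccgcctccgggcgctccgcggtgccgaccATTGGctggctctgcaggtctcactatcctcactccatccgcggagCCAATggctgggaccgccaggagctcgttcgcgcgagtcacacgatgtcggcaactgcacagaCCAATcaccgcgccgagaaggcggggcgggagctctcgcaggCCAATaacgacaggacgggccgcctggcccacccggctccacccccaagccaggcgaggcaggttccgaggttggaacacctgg
NSDHL: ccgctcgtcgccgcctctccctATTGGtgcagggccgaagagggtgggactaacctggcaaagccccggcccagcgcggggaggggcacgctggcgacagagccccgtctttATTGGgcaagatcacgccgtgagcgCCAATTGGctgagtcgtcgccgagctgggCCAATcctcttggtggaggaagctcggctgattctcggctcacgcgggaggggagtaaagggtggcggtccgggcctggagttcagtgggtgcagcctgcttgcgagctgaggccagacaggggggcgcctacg
HSD17B7: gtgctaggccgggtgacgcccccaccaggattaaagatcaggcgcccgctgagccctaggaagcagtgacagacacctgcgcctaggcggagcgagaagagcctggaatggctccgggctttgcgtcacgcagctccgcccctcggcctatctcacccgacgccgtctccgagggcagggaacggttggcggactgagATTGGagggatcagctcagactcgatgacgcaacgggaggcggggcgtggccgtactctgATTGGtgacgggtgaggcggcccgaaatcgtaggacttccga
SREBF2: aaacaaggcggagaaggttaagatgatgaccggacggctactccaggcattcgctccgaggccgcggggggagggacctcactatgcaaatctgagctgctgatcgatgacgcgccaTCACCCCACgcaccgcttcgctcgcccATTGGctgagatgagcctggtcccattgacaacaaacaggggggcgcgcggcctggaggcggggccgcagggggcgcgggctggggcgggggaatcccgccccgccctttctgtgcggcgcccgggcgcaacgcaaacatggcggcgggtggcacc
The window of MSMO1 held 4 boxes, and that of NSDHL held 5, where the palindromic CCAATTGG counts once on each strand. HSD17B7 held 2. The sterol element of SREBF2 began at position −133 from the start. Across the 30 genes of the set with a RefSeq promoter entry, CCAAT occurred on either strand in at least 1 window of 21 (70%), against 39.7% of 27305 genes, and TCACNCCAC occurred in 1, against 1.39% of genes. Since 8 of the 30 genes had several windows, the shares were also taken per window, where CCAAT was in 25 of 40 windows of the set (62.5%), against 34.6% of 35116 windows of the same length. The box was present for 4 of the 4 genes that rose and had an entry, beside 70% of the set. It was also present for genes that did not pass, such as TM7SF2, SCD, INSIG1 and FADS2, whose log2 fold changes were below 0. It was absent from the windows of ABCA1, CYP51A1, ELOVL6, FADS1, INSIG2, NPC1, PMVK, SCAP and SREBF1. ABCG1, ACAT2, FASN, FDFT1 and SQLE had no entry and were not searched. A match is a description of letters, and no binding was measured.

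The remaining sterol enzymes did not pass the threshold. TM7SF2, a sterol reductase that acts on the carbon 14 double bond, was at 31.5, 29.4 and 32.5 FPKM in the siC libraries and 23.3, 23.5 and 27.6 FPKM upon knockdown. It ran opposite to the neighbouring steps, with all siMSI1 libraries below siC (log2 fold change −0.33, SE 0.085, adjusted p = 0.027), and it shares its locus and strand with VPS51, which showed a log2 fold change of 0.02. FDFT1, the squalene synthase, SQLE, the squalene epoxidase, and LSS, which closes the ring to lanosterol, had log2 fold changes of −0.05, 0.10 and 0.09. Those of CYP51A1, the lanosterol demethylase at carbon 14, SC5D, the lathosterol desaturase, and EBP, the sterol isomerase, were 0.13, 0.18 and −0.15. DHCR7, the last reductase of one branch, showed a log2 fold change of 0.00 (adjusted p = 0.98), with siC at 69.3 to 76.2 FPKM and siMSI1 at 69.0 to 82.1 FPKM, while AP002387.1, an antisense gene at the same locus, fell (log2 fold change −0.75, adjusted p = 0.0057).

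None of the 5 SREBP regulators passed limma's test, 0 of 5 passed in voom, and 2 had an unadjusted p under 0.05. With voom and a term for the replicate number 2 passed, both lower. With each library corrected for GC content, or at an adjusted p of 0.05, 1 passed, also lower. INSIG1, which retains SCAP in the endoplasmic reticulum and is itself an SREBP target, came nearest, with 36.6, 38.6 and 36.4 FPKM in siC and 31.3, 32.1 and 31.8 FPKM in siMSI1. The replicates were close to each other and all siMSI1 libraries were lower, yet the adjusted p was 0.026 at a log2 fold change of −0.23 (SE 0.059). INSIG2, the paralog with the same role, was at 6.81, 7.21 and 6.63 FPKM in the siC libraries and 6.48, 7.01 and 5.32 FPKM upon knockdown and overlapped (log2 fold change −0.14, adjusted p = 0.39).

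SREBF1, which encodes the SREBP form that mainly drives fatty acid genes, was at 8.83, 8.04 and 9.62 FPKM in the siC libraries and 6.14, 7.33 and 8.07 FPKM upon knockdown. Only siMSI1 replicate 3 reached into the siC range, and the 95% interval of the log2 fold change of −0.30 was −0.57 to −0.03 (adjusted p = 0.10). SREBF2, which encodes the form that mainly drives sterol genes, was at 26.6, 24.2 and 26.2 FPKM in the siC libraries and 26.7, 25.1 and 30.4 FPKM upon knockdown. The groups overlapped (log2 fold change 0.09, adjusted p = 0.48). SCAP, the escort protein, was at 20.03, 20.6 and 22.3 FPKM in the siC libraries and 21.1, 19.5 and 26.4 FPKM upon knockdown, where replicate 3 was the high library (log2 fold change 0.08, adjusted p = 0.65).

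In fatty acid synthesis 1 of 7 genes rose (5.15% of all tested genes), and 3 had values above 0 (50% of all) and 4 below. The median log2 fold change was −0.05. The gene that rose was ACLY (ENSG00000131473, GRCh38 chr17:41866917-41930542, − strand), the ATP citrate lyase that supplies acetyl-CoA to both routes. ACLY was at 71.6, 65.3 and 71.8 FPKM in the siC libraries and 96.3, 94.1 and 107 FPKM upon knockdown, from 5391 to 8027 reads. The siMSI1 libraries were all higher, at 143% of the siC mean (log2 fold change 0.51, SE 0.076, adjusted p = 0.0031). The gene passed in 14 of 19 other settings, and it missed the threshold without any one of the siC libraries, with adjusted p up to 0.0165. AC125257.2, a noncoding gene on the opposite strand of the same locus, was at 39.8 to 68.3 FPKM and rose as well (log2 fold change 0.55, adjusted p = 0.0046), and since the counting is not stated to have used strand, reads of the pair cannot be told apart.

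The enzymes that use this acetyl-CoA did not pass. ACACA, the carboxylase that makes malonyl-CoA, showed a log2 fold change of 0.05. FASN, the fatty acid synthase, was at 48.1, 43.8 and 49.97 FPKM in the siC libraries and 48.2, 46.8 and 62.4 FPKM upon knockdown (log2 fold change 0.14, adjusted p = 0.38), so that a single siMSI1 library, replicate 3, lay above siC. The enzymes that elongate and desaturate the product had values below 0: SCD was at 125, 127 and 128 FPKM in the siC libraries and 101, 108 and 115 FPKM upon knockdown (log2 fold change −0.23, adjusted p = 0.039). ELOVL6, which elongates palmitate, was at 12.5, 13.8 and 11.0 FPKM in the siC libraries and 9.27, 10.0 and 8.26 FPKM upon knockdown (log2 fold change −0.43, SE 0.108, adjusted p = 0.025). For both genes, every siMSI1 library was below every siC library. FADS2, the desaturase that starts the synthesis of polyunsaturated fatty acids, also separated without overlap, from a siC mean of 49.8 ± 2.37 FPKM to 41.1 ± 4.41 FPKM (SD, n = 3; log2 fold change −0.28, adjusted p = 0.050), whereas FADS1, which acts later in that route, showed a log2 fold change of −0.05 (adjusted p = 0.61). Without siMSI1 replicate 3, FADS2 passed (adjusted p = 0.0079), as did TM7SF2 (adjusted p = 0.0061). FADS2 shares strand and locus with FEN1, a nuclease gene of DNA replication that fell (log2 fold change −0.47, adjusted p = 0.0013). FADS1 and FADS2 also overlap each other on opposite strands, so the pair may share reads if the counting did not use strand.

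Among the genes of sterol transport and efflux, 1 rose. MYLIP (ENSG00000007944, GRCh38 chr6:16129086-16148248, + strand) encodes the LXR-induced ubiquitin ligase that sends lipoprotein receptors to degradation. It was at 4.31, 4.45 and 5.27 FPKM in the siC libraries and 6.89, 7.60 and 6.41 FPKM upon knockdown, from 196 to 308 reads, the fewest behind any of the 5 calls. The groups did not overlap, and siMSI1 was at 149% of the siC mean (log2 fold change 0.57, SE 0.108, adjusted p = 0.0084). The call passed in 12 of 19 other settings, and it was missed without siC replicates 1 or 2 or siMSI1 replicates 1 or 2, with adjusted p up to 0.0397. ABCA1, the cholesterol exporter that is the best known LXR target, showed a log2 fold change of −0.21 (adjusted p = 0.25), with siC at 3.11 to 4.07 FPKM and siMSI1 at 2.79 to 3.20 FPKM. NPC1, which exports cholesterol from lysosomes, showed a log2 fold change of −0.17 (adjusted p = 0.35), and STARD4 had one of 0.41 (adjusted p = 0.28) from 40 to 76 reads per library, without overlap of the groups.

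The other genes of the pathway were taken from lists of 49 genes, of which 44 were tested. Of these, 10 passed, 5 higher and 5 lower, which is 22.7% against 11.0% of all tested genes. The lists were chosen with earlier results of these data known, which limits this comparison. Without siC replicate 1, 2 or 3 the number that passed was 2, 5 and 6, respectively. The largest fall and the largest rise among these 10 were those of SLC25A1 and VLDLR. SLC25A1, the mitochondrial carrier that exports the citrate ACLY cleaves, was at 99.5, 86.1 and 107 FPKM in the siC libraries and 42.8, 42.0 and 52.8 FPKM upon knockdown. It fell to less than any siC level in all siMSI1 libraries (log2 fold change −1.09, SE 0.115, adjusted p = 0.00080) and passed in 19 of 19 other settings. VLDLR, a lipoprotein receptor that MYLIP targets, was at 9.43, 10.4 and 9.71 FPKM in the siC libraries and 17.2, 17.9 and 16.5 FPKM upon knockdown. It rose in every siMSI1 library (log2 fold change 0.80, SE 0.070, adjusted p = 0.00044) and also passed in 19 of 19 settings.

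**Figure D3:**
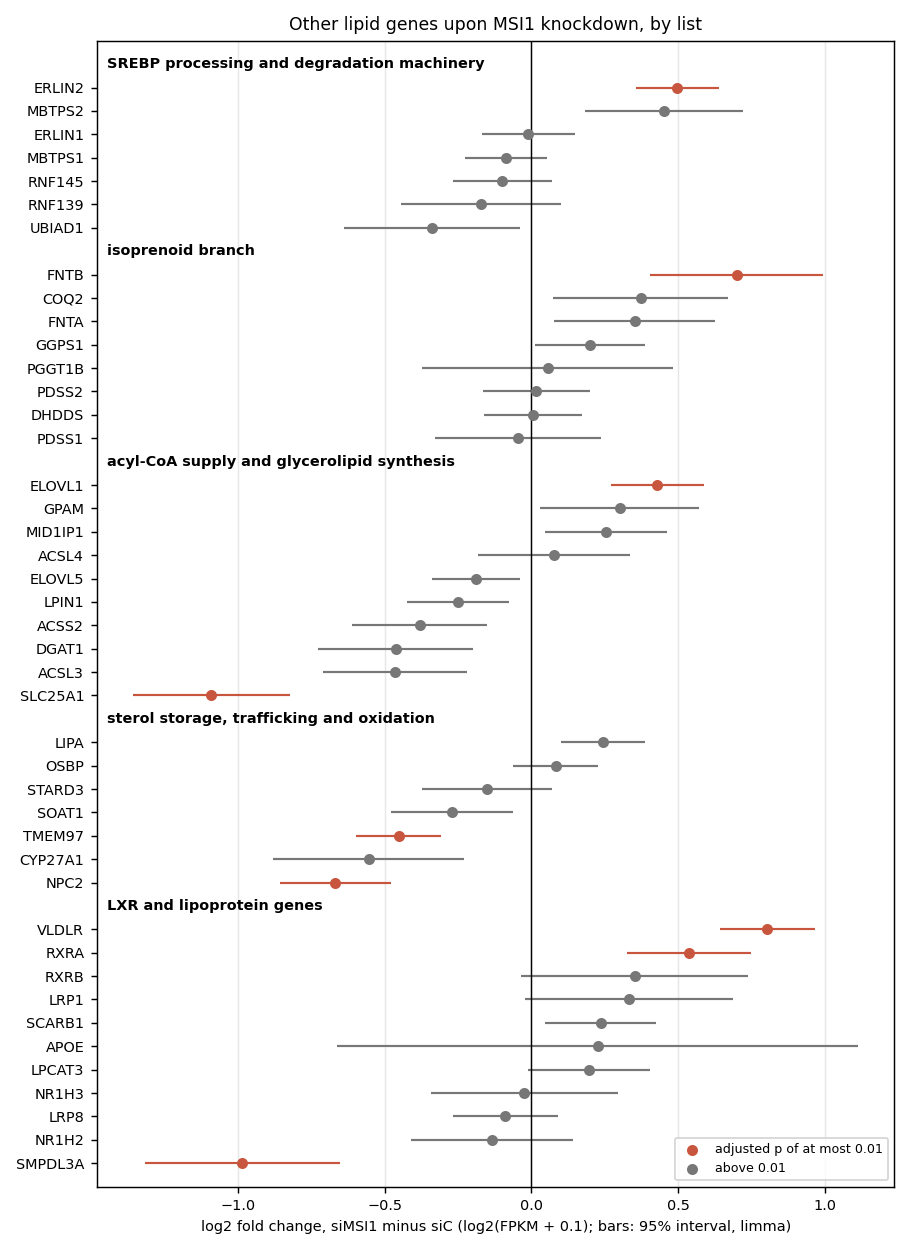
Log2 fold change of siMSI1 minus siC for 43 other tested genes of the pathway, grouped by list, with the 95% interval from limma. The 9 genes drawn past the threshold lie on both sides of 0, from −1.09 for SLC25A1 to 0.80 for VLDLR.

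In the machinery that processes SREBP or degrades sterol-regulated proteins, ERLIN2, which forms a membrane scaffold in the endoplasmic reticulum, rose from 10.6 ± 0.0803 to 15.0 ± 0.335 FPKM (SD, n = 3; log2 fold change 0.50, adjusted p = 0.0014). MBTPS2, the protease that makes the final cut in SREBP, showed a log2 fold change of 0.45 and missed the threshold (adjusted p = 0.027). In the isoprenoid branch, 1 of 8 genes passed: FNTB, the beta subunit of protein farnesyltransferase, rose (log2 fold change 0.70, adjusted p = 0.0071). Of 10 tested genes of acyl-CoA supply and glycerolipid synthesis, ELOVL1, an elongase of very long chains, rose (log2 fold change 0.43, adjusted p = 0.0041) next to the drop of SLC25A1.

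Of 7 tested genes of sterol storage, trafficking and oxidation, 2 fell and 0 rose, with 1 higher gene at an unadjusted p under 0.05. They were NPC2, which hands lysosomal cholesterol to NPC1 (log2 fold change −0.67, adjusted p = 0.0014), and TMEM97, the sigma-2 receptor that binds NPC1 (log2 fold change −0.45, adjusted p = 0.0023). Of 11 genes of LXR and lipoproteins, 3 passed: besides VLDLR, RXRA, the partner receptor of LXR, rose (log2 fold change 0.54, adjusted p = 0.0055), and SMPDL3A, an LXR-responsive phosphodiesterase, fell (log2 fold change −0.98, adjusted p = 0.0028).

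A list of 9 DNA replication genes fell as a whole in the same libraries. All 9 passed, with a median log2 fold change of −0.53, and their summed level was 643 to 658 FPKM in siC and 457 to 482 FPKM in siMSI1. In the same cells GFAP, an astrocyte filament protein, rose from 1.63 to 4.61 FPKM on average (log2 fold change 1.46), and FABP7, a fatty acid binding protein of radial glia, fell from 36.1 to 16.6 FPKM (log2 fold change −1.12). The part of cycling or of cell state in the values of the lipid genes was not tested.

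The spread within each group moved with base composition. In siC, the difference between replicate 2 and the mean of replicates 1 and 3 fell with transcript GC content. Across the 34 tested genes of the set, Pearson's r was −0.84 and Spearman's rho was −0.85. For the 34 tested genes of the set, the difference between siMSI1 replicate 3 and the mean of siMSI1 replicates 1 and 2 followed the GC content of the gene's longest transcript, with Pearson's r = 0.84 and Spearman's rho = 0.87 across genes, which share their libraries and are no independent replicates. Over 14931 tested genes with a GC content, r was 0.29 and rho was 0.56. All 14 genes of the set with over 50% GC were higher in replicate 3, by a median of 0.25 on the log2 scale, as against 10 of the 20 others, whose median was −0.05. FASN, SCAP and SREBF1, at 65.3%, 61.7% and 63.2% GC, were among the genes whose replicate 3 was the highest of siMSI1. With each library corrected for GC content, an alternative chosen after the data were seen, 11 of the 34 genes passed, 7 higher and 4 lower, and 20.9% of all tested genes did. These were the 5 genes named above with HSD17B7 and HMGCS1 on the higher side, and ELOVL6, TM7SF2, FADS2 and INSIG1 on the lower side.

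**Figure D4:**
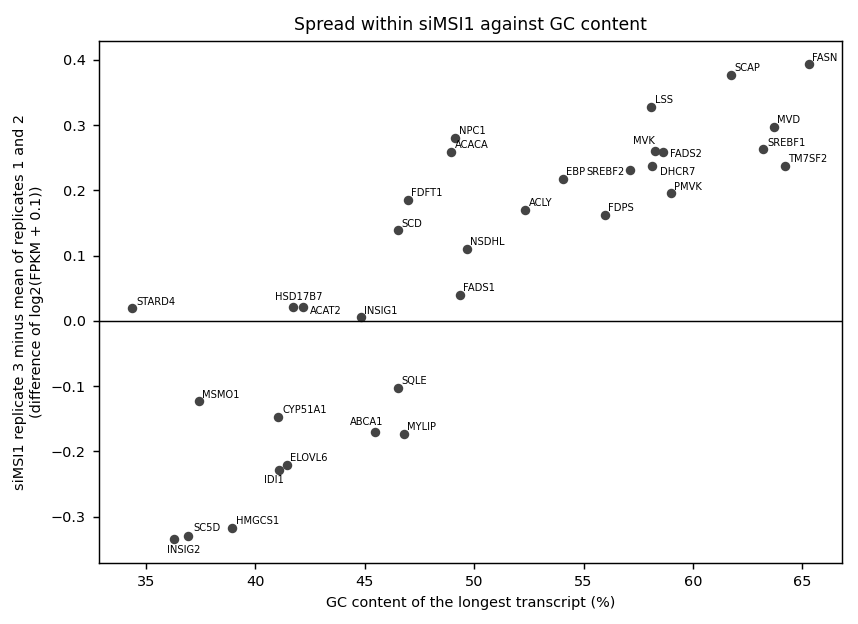
Difference in log2(FPKM + 0.1) between siMSI1 replicate 3 and the mean of siMSI1 replicates 1 and 2, against the GC content of the longest transcript in percent, 1 point per gene of the set. Points to the right of 50% all lie above 0.

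**Figure D5:**
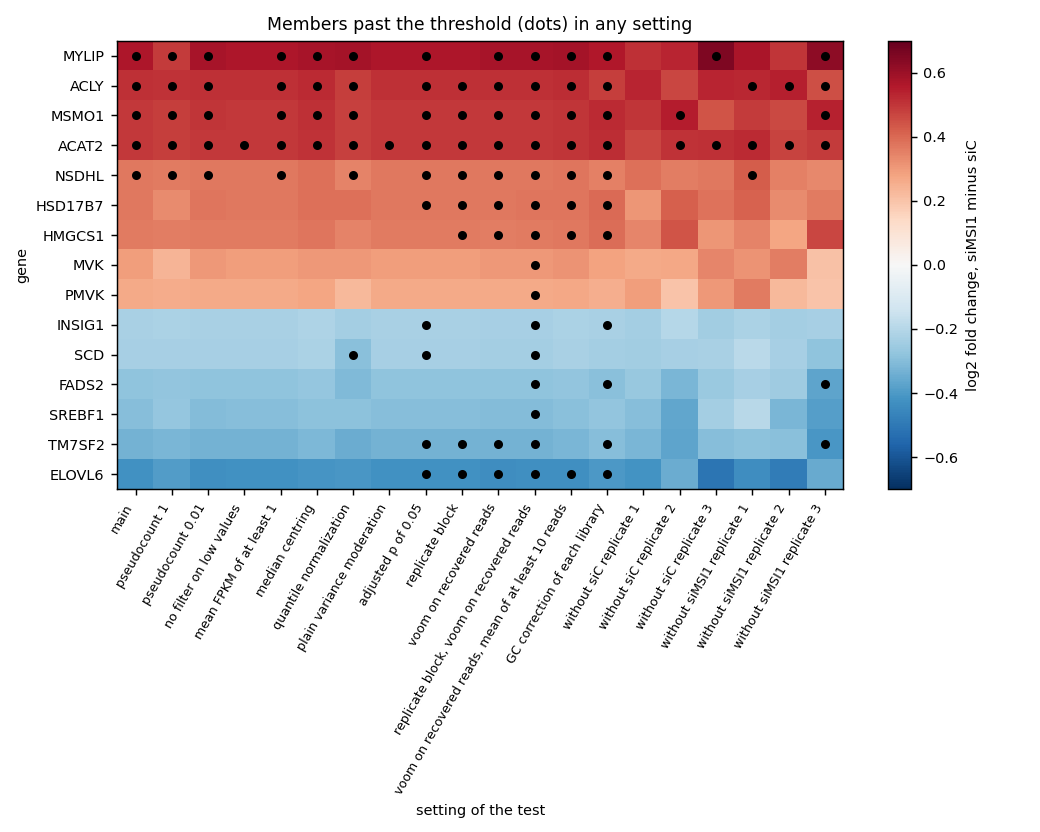
Log2 fold change of siMSI1 minus siC as a colour for each gene of the set that passed in any setting, across the settings of the test, where a dot marks a gene past the threshold of that setting. ACAT2 carries a dot in nearly every column, and the genes near the threshold carry theirs in part of the columns only.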

How the data were processed

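Polyadenylated RNA of KNS42 cells was sequenced at 72 h after transfection, in 3 siC and 3 siMSI1 libraries. According to the submitters' processing notes and the methods, the authors trimmed reads with cutadapt 1.14, aligned them to GRCh38 with HISAT2 2.1.0, used SAMtools 1.5 and summarized reads per gene with featureCounts 1.5.3. The library preparation was strand-specific, and the strand setting of the counting is not given in the sources used here. The authors deposited FPKM per gene and library. Further columns hold their own edgeR 3.18.1 comparison (fold changes, p-values, FDR) and were not used.

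Whole reads were recovered from FPKM and gene length (100% within 0.01 read): 13087025 to 18024080 reads per library. A floor of 3 reads equals 0.0829 to 0.114 FPKM at 2 kb, which covers counting error only. Genes with a mean of at least 0.5 FPKM were tested on log2(FPKM + 0.1), a scale that understates changes of low genes, with limma 3.58.1 (R 4.3.3; robust moderation with a mean trend) and Benjamini-Hochberg adjustment over all 15069 genes. The threshold was an adjusted p of 0.01. An exact permutation test of 3 against 3 libraries cannot go below p = 0.1, which it reaches when the groups do not overlap. It was given only as overlap or no overlap, and no gene was called by it. The members and lists were chosen with earlier results of these data known. Named were members past the threshold or with an absolute log2 fold change of at least 0.5, the SREBP regulators, and up to 3 genes per other list and direction; HSD17B7, HMGCS1, MVK, TM7SF2, SCD, ELOVL6, FADS2, FASN, STARD4 and MBTPS2 got values beyond this rule after their values were seen. Overlaps and GC content came from GENCODE on GRCh38 and promoters from RefSeq (30 of 35 members matched). Alternatives were other pseudocounts, filters, normalizations, variance moderation, voom on recovered reads, a replicate block, leaving out each library and, chosen after the data were seen, a GC correction. One gene of these lists is counted but not reported here by name. The script was tested on simulated data.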

Additional observations from a re-analysis of the deposited data

How the results depend on the processing

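The 5 genes of the set that passed kept their direction in 19 of 19 alternatives. Part of these could not turn it. Another filter, variance moderation or threshold, or the replicate block in limma, leaves the fold change as it is. Both the number of genes of the set that passed and the background moved with the settings: 5 of the set, 1655 of all tested genes and 10 other pathway genes passed as reported. Without a filter on low values these were 1, 792 and 6, with plain variance moderation 1, 847 and 5, and at an adjusted p of 0.05 they were 10, 3787 and 17. Voom on the recovered reads called 9 and 2817, voom with a mean of at least 10 reads 8 and 2950, and the GC correction 11, 3156 and 19. Leaving out 1 library gave 0 to 6 of the set, 517 to 1603 of all genes and 2 to 11 other pathway genes. The lowest values came without siC replicate 1, and the cause was not tested.

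The replicate numbers are shared by the groups, and the labels do not state whether same-numbered libraries form pairs. The deviations of same-numbered libraries correlated at −0.066, 0.078 and 0.083, and those of differently numbered libraries at −0.14 to 0.070. Whether same-numbered libraries share an effect was not tested beyond the replicate block. With the replicate block 8 genes of the set (6 higher, 2 lower) and 2250 of all passed, and 4 of the 5 genes named were among the 8, all but MYLIP (adjusted p = 0.0135). With the replicate block and voom these were 15, 4923 and 25 other pathway genes.

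Signs turned for 6 genes of the set, none of which passed: DHCR7 (−0.034 with quantile normalization, −0.0083 with the GC correction, −0.076 to 0.049 without 1 library), and, without 1 library, IDI1 (−0.15 to 0.016), FDPS (−0.094 to 0.012), LSS (−0.023 to 0.16), SCAP (−0.046 to 0.17) and ACACA (−0.040 to 0.12). The cause was not tested. Reads limit STARD4 and ABCG1 most.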
